A study of Mus musculus with 36 samples.

Results

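The 7 genes described here are *mt-Nd1*, *mt-Nd2*, *mt-Nd4*, *mt-Nd5*, *mt-Nd6*, *mt-Cytb* and *mt-Co1*, which are encoded by mitochondrial DNA and were chosen by name. They are 7 of the 13 protein genes and of the 37 genes annotated to the mouse mitochondrial genome, out of 78239 genes in the count tables. Male C57BL/6NCrl mice labelled WT, an inbred substrain bought from a breeder, were killed when aged 8, 10 or 12 weeks, and RNA was sequenced from whole heart, kidney or liver. Each of the 9 combinations of tissue and age had 4 libraries of polyadenylated RNA, 36 in all, and the study calls these 4 biological replicates. The labels share library numbers between tissues but do not say that a number stands for 1 mouse. No treatment was given, every mouse was male and of 1 strain, and the differences between ages are differences between mice killed at different ages. The values are read pairs that STAR placed at a single best position and on a single gene, written below as CPM, the pairs of a gene for every 1000000 counted pairs of its library.

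Mitochondrial DNA is a small circle that is read into long precursor RNAs from both of its strands. The precursors are cut mostly at the transfer RNAs that lie between the genes, and most of the messenger RNAs then receive short poly(A) tails. *mt-Nd1*, *mt-Nd2*, *mt-Nd4*, *mt-Nd5* and *mt-Nd6* encode core membrane subunits of complex I, the NADH dehydrogenase of the respiratory chain, *mt-Cytb* encodes cytochrome b of complex III, and *mt-Co1* encodes the catalytic subunit of complex IV, cytochrome c oxidase. The heart is a tissue with very many mitochondria, and nuclear genes supply all other subunits of complex III and most of complexes I and IV.

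All 7 genes lie on chromosome M of build GRCm39 and consist of a single exon. *mt-Nd6* is the only one of them on the minus strand. Their last 30 bases are shown 5′ to 3′ on the strand of each gene, because they show where the coding sequence depends on the poly(A) tail and where 2 of the genes run into each other. Capitals mark the last codon or what the gene holds of it.
mt-Nd1, chrM:3678-3707, plus strand: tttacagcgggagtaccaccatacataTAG
mt-Nd2, chrM:4922-4951, plus strand: ctacccctagccccccaactaattaccTAG
mt-Nd4, chrM:11515-11544, plus strand: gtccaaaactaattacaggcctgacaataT
mt-Nd5, chrM:13536-13565, plus strand: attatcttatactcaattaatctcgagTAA
mt-Nd6, chrM:13552-13581, minus strand: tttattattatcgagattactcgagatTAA
mt-Cytb, chrM:15259-15288, plus strand: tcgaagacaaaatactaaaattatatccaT
mt-Co1, chrM:6843-6872, plus strand: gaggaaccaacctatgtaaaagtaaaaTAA
In 5 of the 7 genes the annotated sequence ended in a complete stop codon. *mt-Nd4* and *mt-Cytb* ended in a lone T, which a poly(A) tail turns into TAA.

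The ends of *mt-Nd5* and *mt-Nd6* share 14 bases on opposite strands. The stretch chrM:13534-13583 is shown on the plus strand, with the bases that belong to both genes in capitals.
mt-Nd5 and mt-Nd6: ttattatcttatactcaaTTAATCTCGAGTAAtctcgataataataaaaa
The other annotated overlaps between members and their neighbours were 7 bases of *mt-Nd4* with *mt-Nd4l*, 3 of *mt-Co1* with the transfer RNA gene *mt-Ts1*, and 2 each of *mt-Nd1* with *mt-Ti* and of *mt-Nd2* with *mt-Tw*.

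The nuclear genome holds copies of mitochondrial sequence, and a read pair that matches both equally well is counted on neither. A copy on chromosome 1 (chr1:24650616-24655269, minus strand) matched mitochondrial bases 6390 to 11042 at 99.936% identity over 4654 aligned positions. The 7 genes were listed as lying outside this copy. That held for *mt-Nd1*, *mt-Nd2*, *mt-Nd5*, *mt-Nd6* and *mt-Cytb*. It did not hold for 483 of the 1545 bases of *mt-Co1* (31.3%) and 876 of the 1378 bases of *mt-Nd4* (63.6%), which lay inside it. The copy differed from the mitochondrial sequence at 2 aligned bases, A6393T in *mt-Co1* and T9461C in *mt-Nd3* (mitochondrial base first, positions counted from 1 on the plus strand of chromosome M), and by 1 inserted base in *mt-Tr*, so that the part of *mt-Nd4* inside it was identical. The edges of the copy in these genes are shown on the plus strand of chromosome M, with the bases inside the copy in capitals.
mt-Co1, chrM:6365-6414: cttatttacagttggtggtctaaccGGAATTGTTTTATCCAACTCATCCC
mt-Nd4, chrM:11018-11067: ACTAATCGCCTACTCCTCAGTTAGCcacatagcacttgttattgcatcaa
The 6 protein genes that are not members (*mt-Nd3*, *mt-Nd4l*, *mt-Co2*, *mt-Co3*, *mt-Atp6* and *mt-Atp8*) held a mean of 0.00542% of the counted pairs in heart, 0.00238% in kidney and 0.00180% in liver. The libraries ran from 0.00106% to 0.00900% in heart, 0.000844% to 0.00383% in kidney and 0.00140% to 0.00208% in liver, so the tissues overlapped. In kidney they ran from 0.000844% to 0.000994% at 8 weeks, from 0.00310% to 0.00383% at 10 weeks and from 0.00243% to 0.00319% at 12 weeks. Heart went the other way, with 0.00815% to 0.00900% (median 0.00852%) at 8 weeks and 0.00249% to 0.00888% (0.00289%) at 10 weeks. At 12 weeks heart had 0.00106% to 0.00782% (0.00241%). This share was not tested between ages.

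Further copies with more differences covered other members. A copy on chromosome 2 (chr2:22477300-22480546, 97.362% identity) held all of *mt-Co1*, with 37 mismatches, and 511 bases of *mt-Nd2*, with 17. A copy on chromosome 4 (chr4:79920567-79923437, 93.034% identity) held all of *mt-Nd6*, with 33 mismatches, all of *mt-Cytb*, with 82, and 1078 bases of *mt-Nd5*, with 81. The longest identical stretch was 148 bases for *mt-Co1* on chromosome 2 and 47 bases for *mt-Cytb* on chromosome 4, against reads of up to 150 bases. A 90-base window of each gene is set beside its copy, read in the direction of the gene, with the differing bases in capitals.
mt-Co1, chrM:5628-5717: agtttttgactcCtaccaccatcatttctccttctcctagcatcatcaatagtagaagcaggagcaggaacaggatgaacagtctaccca
copy, chr2:22479270-22479359: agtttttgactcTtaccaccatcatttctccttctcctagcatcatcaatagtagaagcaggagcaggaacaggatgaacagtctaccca
mt-Cytb, chrM:14445-14534: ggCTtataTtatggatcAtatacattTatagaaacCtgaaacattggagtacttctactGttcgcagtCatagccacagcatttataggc
copy, chr4:79922526-79922615: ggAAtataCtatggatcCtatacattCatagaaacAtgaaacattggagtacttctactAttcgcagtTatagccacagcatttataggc
The windows held 1 difference for *mt-Co1* and 8 for *mt-Cytb*. *mt-Nd1* had no match in any of the 3 copies. These were the 3 longest matches found, and shorter matches were not compared with the genes.

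The libraries held 21031599 to 33637390 counted pairs, and each tissue carried its own markers. The summed level of 5 heart muscle genes was 43948 to 58106 CPM in heart and at most 2.00 CPM in the other tissues, that of 5 kidney genes was 23031 to 30380 CPM in kidney and at most 5.90 CPM elsewhere, and that of 5 liver genes was 72945 to 110805 CPM in liver. Kidney held 1705 to 2730 CPM of the liver list, nearly all of it *Cyp2e1*, and heart at most 23.0 CPM. The summed level of 5 red cell genes was 197 to 886 CPM in heart, 111 to 196 CPM in liver and 1.19 to 6.95 CPM in kidney. *Hba-a1* and *Hbb-bt* had medians of 324 and 40.4 CPM in heart and 33.8 and 4.62 CPM in liver. *Alas2* went the other way, with 20.3 CPM in heart and 99.6 CPM in liver. *Hba-a2* and *Hbb-bs* had no counted pairs in any library. The share of pairs that matched several places, which are counted on no gene, moved with the level of the 7 genes: heart had a mean of 17.4%, kidney 8.43% and liver 6.67%. The part of other cells or of these uncounted pairs in the results was not tested. In whole tissue, more cells of a type and more RNA per cell cannot be told apart.

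The 7 transcripts together took 28.2% ± 1.57 of the counted pairs in heart, 9.91% ± 0.543 in kidney and 6.43% ± 0.366 in liver (SD, n = 12). The lowest, median and highest shares were 25.3%, 28.5% and 31.1% in heart. In kidney they were 9.004%, 9.98% and 10.6%, and in liver 5.90%, 6.39% and 7.04%. No library of one tissue reached the range of another. The mean share was 2.85 times as high in heart as in kidney, 4.39 times as high in heart as in liver, and 1.54 times as high in kidney as in liver. Set against the pairs on nuclear genes, the 7 transcripts had 39.8 pairs for every 100 nuclear pairs in heart, 11.02 in kidney and 6.89 in liver.

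**Figure D1:**
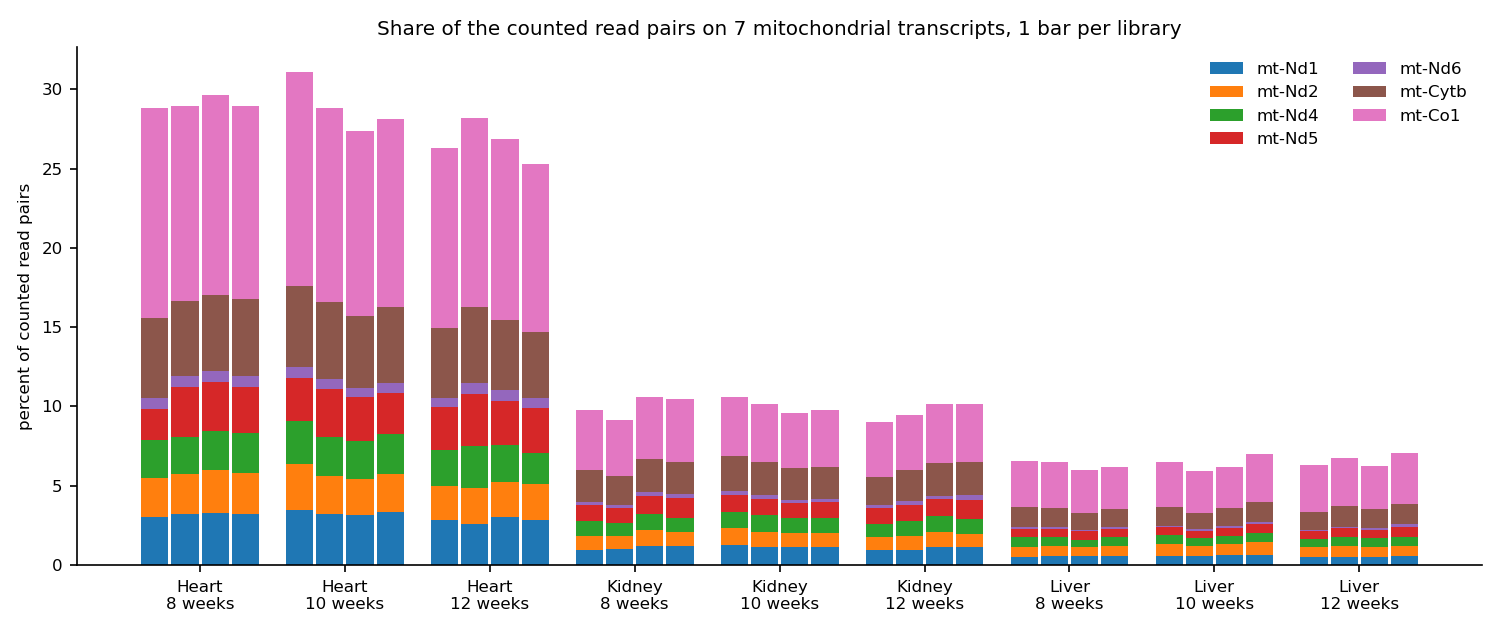
Percent of the counted read pairs on the 7 mitochondrial transcripts, 1 stacked bar per library and 1 colour per transcript, grouped by tissue and age. The heart bars stand between 25.3% and 31.1%, the kidney bars between 9.004% and 10.6% and the liver bars between 5.90% and 7.04%, and *mt-Co1* is the largest segment in every bar.

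*mt-Co1* (ENSMUSG00000064351, chrM:5328-6872), the catalytic subunit of cytochrome c oxidase, was the highest of the 7 in every library. It was the gene with the most counted pairs in all heart and kidney libraries and ranked 2 in all liver libraries, behind albumin (*Alb*). In heart its lowest, median and highest levels were 105825, 120408 and 135128 CPM. In kidney they were 34227, 36971 and 39642 CPM, and in liver 25726, 28732 and 32096 CPM.

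*mt-Cytb* (ENSMUSG00000064370, chrM:14145-15288), cytochrome b of complex III, came next in CPM in all 3 tissues. Its lowest, median and highest levels were 42048, 47916 and 50893 CPM in heart, 18154, 20305 and 21795 CPM in kidney, and 10041, 11910 and 12788 CPM in liver. It ranked 2 among all genes in every heart library, 2 to 4 in kidney and 4 to 8 in liver.

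*mt-Nd1* (ENSMUSG00000064341, chrM:2751-3707) encodes a complex I subunit beside the site where ubiquinone binds, and it is the member without a match in the 3 longest nuclear copies. Its lowest, median and highest levels were 25646, 31554 and 34783 CPM in heart, 9560, 11283 and 12481 CPM in kidney, and 4834, 5571 and 6586 CPM in liver. *mt-Nd2* (ENSMUSG00000064345, chrM:3914-4951), an antiporter-like subunit of the membrane arm, had 21171, 24236 and 29140 CPM in heart, 7855, 8919 and 11033 CPM in kidney, and 5694, 6523 and 7638 CPM in liver. In both genes the ranges of the 3 tissues were separate, with heart above kidney and kidney above liver.

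*mt-Nd4* (ENSMUSG00000064363, chrM:10167-11544) and *mt-Nd5* (ENSMUSG00000064367, chrM:11742-13565) encode the other antiporter-like subunits among the members. *mt-Nd4* lay at 19434, 24423 and 26740 CPM in heart, 8375, 9437 and 10365 CPM in kidney, and 4713, 5542 and 6055 CPM in liver, again as lowest, median and highest. *mt-Nd5* lay at 19753, 28363 and 32729 CPM in heart, 9538, 10394 and 12156 CPM in kidney, and 4731, 5299 and 6427 CPM in liver. *mt-Nd6* (ENSMUSG00000064368, chrM:13552-14070), the complex I subunit encoded on the other strand, was the lowest of the 7 in every tissue. It had 5684, 6673 and 7159 CPM in heart, 1780, 2194 and 2926 CPM in kidney, and 882, 1113 and 1292 CPM in liver. The tissue ranges of these genes were separate as well.

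**Figure D2:**
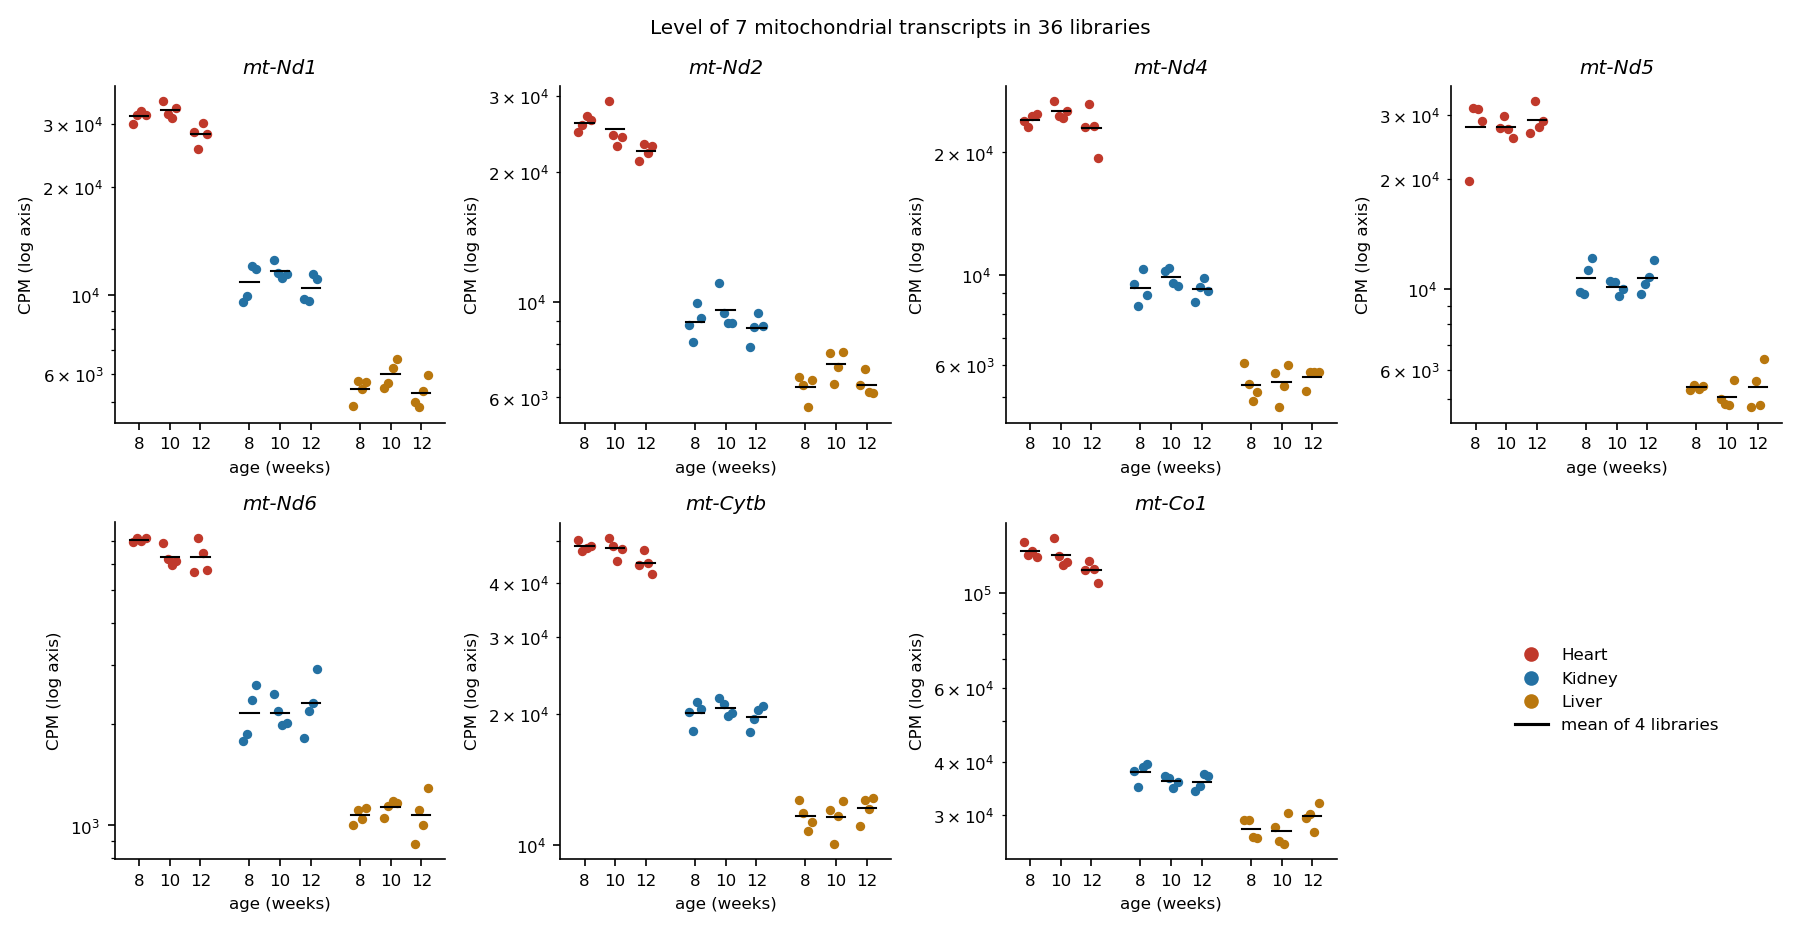
Level of each of the 7 transcripts in CPM (log axis) in every library, by age in weeks, with heart in red, kidney in blue and liver in yellow and a black line at the mean of 4 libraries. In each panel all heart points lie above all kidney points and all kidney points above all liver points, while the points of different ages within a tissue mostly share a range.

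Levels of different genes were compared per kilobase of gene. In heart the mean was 78118 ± 5221 CPM per kilobase for *mt-Co1*, 41207 ± 2334 for *mt-Cytb*, 32256 ± 2609 for *mt-Nd1*, 23582 ± 2171 for *mt-Nd2*, 17513 ± 1370 for *mt-Nd4*, 15451 ± 1825 for *mt-Nd5* and 12592 ± 1125 for *mt-Nd6* (SD, n = 12). Neighbours in this order overlapped in their ranges over the heart libraries for *mt-Nd1* and *mt-Nd2*, for *mt-Nd4* and *mt-Nd5*, and for *mt-Nd5* and *mt-Nd6*. The order of the means was the same in kidney, where the same neighbours overlapped. In liver *mt-Nd2* (6413 ± 563 CPM per kilobase) stood above *mt-Nd1* (5819 ± 549), and the ranges of these 2 overlapped, as did those of *mt-Nd4* and *mt-Nd5*. The place of *mt-Nd4* depended on its length: set against only its 502 bases outside the chromosome 1 copy, it had 48074 ± 3761 CPM per kilobase in heart and ranked 2 of 7 in all 3 tissues. Pairs that reach from the copy into these bases can be counted too. The 502 bases therefore understate the length that gives pairs, and a length between 502 bases and the full gene was not tried. *mt-Co1* ranked 1 on either length. The places of *mt-Nd5* and *mt-Nd6* depended on pairs that touch both genes and are counted on neither, which are described further below. With these pairs returned, an alternative added after the data had been seen, *mt-Nd6* had 23942 ± 1882 CPM per kilobase in heart, against 18576 ± 1909 for *mt-Nd5* and 17538 ± 1378 for *mt-Nd4*. Each pair on the overlap was then counted on both *mt-Nd5* and *mt-Nd6*, which adds more per kilobase to *mt-Nd6*, the shorter gene. On full gene lengths the mean of *mt-Nd6* then ranked 4 of 7 in heart and 5 of 7 in kidney and in liver, above *mt-Nd4* and *mt-Nd5* in all 3 tissues. Its range overlapped that of *mt-Nd5* in all 3 tissues and that of *mt-Nd4* in kidney and liver. In liver the means were 4030 ± 375 for *mt-Nd6* and 3968 ± 316 for *mt-Nd4*. The last place of *mt-Nd6* therefore held only for the counts without those pairs. The place of *mt-Nd6* above *mt-Nd4* held on full lengths and not on the 502 bases. Set against its 502 bases outside the copy, *mt-Nd4* had 48074, 18824 and 10891 CPM per kilobase in heart, kidney and liver. With pairs returned *mt-Nd6* had 23942, 8359 and 4030. Pairs lost to a neighbour on the same strand were not returned.

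The 7 transcripts were also compared as shares of their own sum, which do not depend on the scaling of the library. *mt-Co1* held 42.8% ± 1.10 of their pairs in heart, 37.1% ± 1.06 in kidney and 44.3% ± 1.42 in liver (SD, n = 12), and the kidney libraries (35.2% to 39.0%) lay below all those of the other tissues. *mt-Cytb* held 16.7% ± 0.344 in heart, 20.3% ± 0.351 in kidney and 18.3% ± 0.656 in liver, with kidney above every library of the other tissues and an overlap between heart and liver. *mt-Nd1* held 10.9% ± 0.667 in heart, 11.1% ± 0.612 in kidney and 8.68% ± 0.860 in liver. *mt-Nd2* was highest in liver, at 10.4% ± 0.832 against 8.67% ± 0.423 in heart and 9.16% ± 0.472 in kidney. *mt-Nd4* held 8.55% ± 0.451 in heart, 9.54% ± 0.465 in kidney and 8.50% ± 0.399 in liver, with overlaps between all tissues. *mt-Nd5* was lowest in liver as well, at 8.19% ± 0.521 against 10.02% ± 1.26 in heart and 10.6% ± 0.591 in kidney, and its kidney libraries did not overlap those of liver. *mt-Nd6* was lowest in liver, at 1.70% ± 0.157 against 2.32% ± 0.144 in heart and 2.23% ± 0.272 in kidney, and its heart libraries did not overlap those of liver. As log2 ratios of the mean shares, these differences ran from -0.28 to 0.21 for heart against kidney, -0.26 to 0.44 for heart against liver and -0.26 to 0.39 for kidney against liver.

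**Figure D3:**
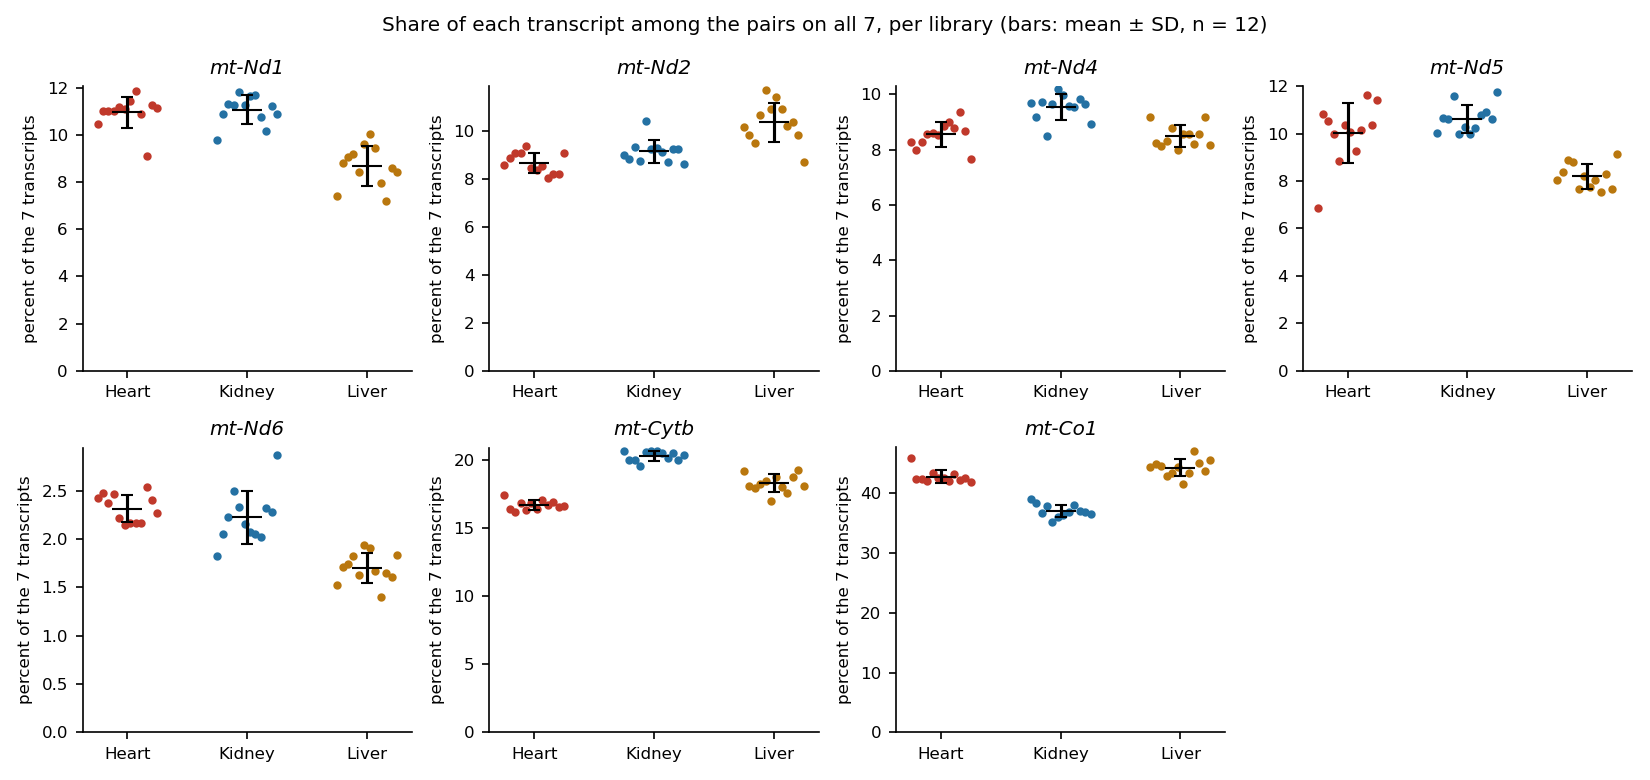
Percent of the pairs on the 7 transcripts that fell on each of them, 1 point per library, with the mean and SD of 12 libraries in black and each axis starting at 0. The kidney points are lowest for *mt-Co1* (35.2% to 39.0%) and highest for *mt-Cytb*, and 1 heart library is low for *mt-Nd5* (6.86%).

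For the test between tissues, edgeR's quasi-likelihood model was fitted to all 36 libraries and the 19716 genes that passed the count filter, with TMM scaling, and a gene was called at a Benjamini-Hochberg adjusted p under 0.05. All 7 genes passed the filter. Between heart and kidney all 7 were called, all higher in heart, where 86.1% of all genes tested were called and 39% were called higher. The log2 difference was largest for *mt-Co1*, at 2.24 ± 0.07 (SE, adjusted p = 1.54e-25), and smallest for *mt-Cytb*, at 1.75 ± 0.06 (adjusted p = 1.49e-23), which is 4.74-fold (95% interval 4.30 to 5.22) and 3.37-fold (3.09 to 3.69). The other members had 2.09 ± 0.08 (*mt-Nd6*), 2.02 ± 0.07 (*mt-Nd1*), 1.96 ± 0.07 (*mt-Nd2*), 1.95 ± 0.08 (*mt-Nd5*) and 1.88 ± 0.06 (*mt-Nd4*). The median of the 7 was 1.96, and the median of all genes tested was -0.15. No heart library overlapped a kidney library in CPM for any of the 7, which held in the same direction for 16.8% of all genes tested.

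Between heart and liver all 7 were again called higher in heart, beside 84.2% of all genes called and 42% called higher. Here *mt-Nd6* led with 2.31 ± 0.08 on the log2 scale (4.96-fold, 95% interval 4.42 to 5.58), followed by *mt-Nd1* at 2.20 ± 0.07 and *mt-Nd5* at 2.15 ± 0.08, and *mt-Nd2* was lowest at 1.61 ± 0.07 (3.06-fold, 2.79 to 3.36, adjusted p = 4.48e-22). *mt-Nd4* had 1.88 ± 0.06, *mt-Co1* 1.82 ± 0.07 and *mt-Cytb* 1.74 ± 0.06. The median of the 7 was 1.88, against 0.00 for all genes. The 2 comparisons share the heart libraries. Separation in CPM with heart higher held for all 7 and for 31.9% of all genes.

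Between kidney and liver the result depended on the scaling. With TMM factors 5 of the 7 were called, beside 83.1% of all genes (46% higher and 37% lower in kidney): *mt-Nd1* (0.18 ± 0.07, adjusted p = 0.0106), *mt-Nd5* (0.20 ± 0.08, adjusted p = 0.0154) and *mt-Nd6* (0.22 ± 0.08, adjusted p = 0.0101) higher in kidney, and *mt-Nd2* (-0.34 ± 0.06, adjusted p = 9.44e-06) and *mt-Co1* (-0.42 ± 0.07, adjusted p = 4.73e-07) lower. *mt-Nd4* (0.00, 95% interval -0.13 to 0.12) and *mt-Cytb* (-0.02, -0.14 to 0.11) did not pass the test. With total counts in place of the factors all 7 were called higher in kidney, beside 72.3% of all genes called higher, between 0.37 ± 0.06 for *mt-Co1* and 1.02 ± 0.07 for *mt-Nd6*, as the separate CPM ranges show. Separation in CPM with kidney higher held for all 7 and for 50.7% of all genes. The TMM factors were 1.30 to 1.42 in kidney, 0.724 to 0.821 in liver and 0.896 to 0.981 in heart. On total counts the median of all genes moved from 0.16 to 0.93 in this comparison, and the genes called higher and lower went from 9074 and 7303 to 14248 and 3344. For heart against kidney that median moved from -0.15 to -0.67 and the calls from 7694 higher and 9282 lower to 5183 and 12170. For heart against liver the median moved from 0.00 to 0.22 and the calls from 8277 and 8315 to 9508 and 6999. The members stayed higher in heart on total counts, by 1.22 to 1.72 over kidney (all 7 called, beside 26.3% of all genes called higher) and 1.88 to 2.58 over liver (all 7 called, beside 48.2%) on the log2 scale.

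**Figure D4:**
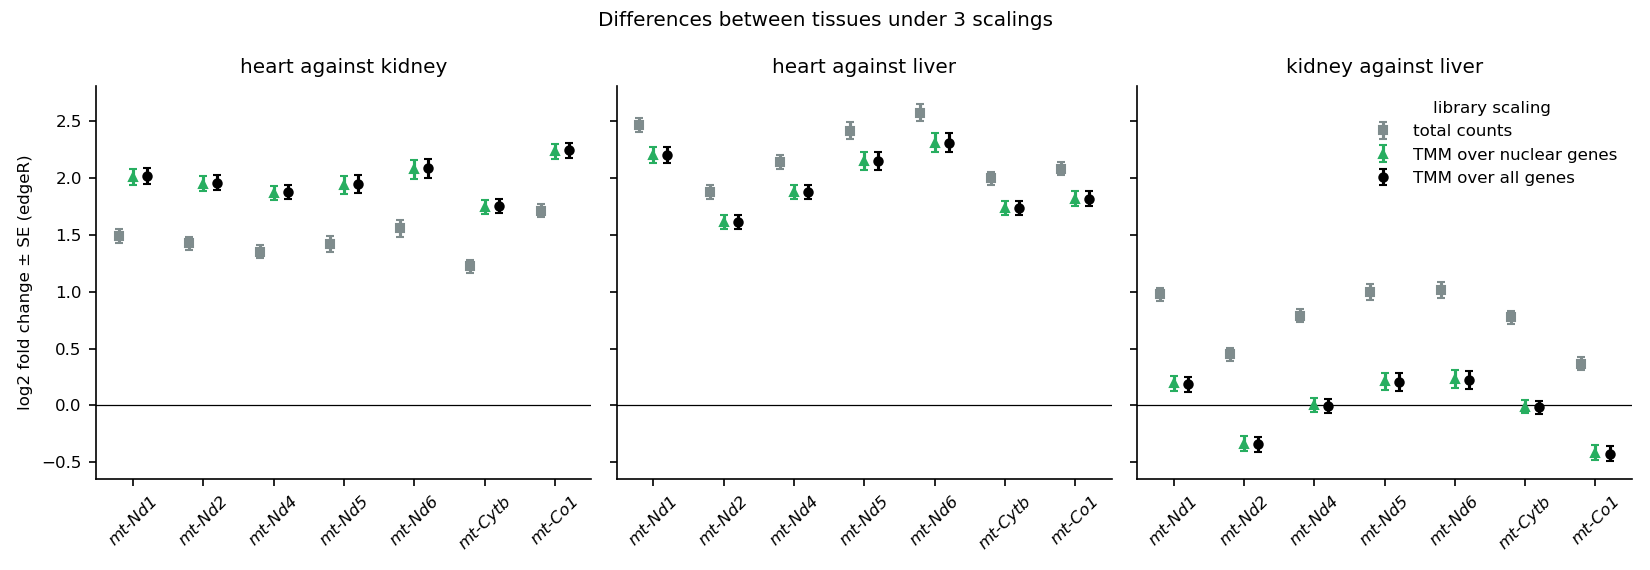
Log2 fold change of each of the 7 transcripts between tissues in edgeR's fit, with its SE, under total counts (grey squares), TMM factors over nuclear genes (green triangles) and TMM factors over all genes (black circles). All points lie above 0 for heart against kidney and heart against liver. For kidney against liver the points on total counts lie between 0.37 and 1.02 and those on TMM factors over all genes between -0.42 and 0.22.

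With age, the heart libraries at 12 weeks held the lowest mean share. The 7 transcripts took 28.8%, 28.95%, 29.6% and 28.97% of the counted pairs in the 4 heart libraries at 8 weeks, 31.1%, 28.8%, 27.3% and 28.1% at 10 weeks, and 26.3%, 28.2%, 26.9% and 25.3% at 12 weeks. The libraries at 12 weeks all lay below those at 8 weeks, and the libraries at 10 weeks overlapped both. As a share of all read pairs, 8 and 12 weeks overlapped, at 20.234% to 21.072% and 18.511% to 20.242%. Pairs that matched several places were 17.3% to 19.1% of all pairs in heart at 8 weeks and 16.2% to 16.6% at 12 weeks. Their part in the lower share was not tested. Fitted within heart over 15137 genes, none of the 7 passed the adjusted p between 12 and 8 weeks in edgeR, where 4.56% of all genes did, and 3 had an unadjusted p under 0.05. Neither DESeq2 nor limma-voom called any of them, with 5 and 4 at an unadjusted p under 0.05.

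*mt-Nd2* had 24725, 25670, 26987 and 26336 CPM in heart at 8 weeks and 21171, 23177, 22132 and 22959 CPM at 12 weeks. These groups did not overlap, and the log2 difference was -0.24 (95% interval -0.45 to -0.04, unadjusted p = 0.0234, adjusted p = 0.145 in edgeR). *mt-Co1* had 132406, 122846, 125747 and 121811 CPM at 8 weeks and 113745, 119004, 114322 and 105825 CPM at 12 weeks. Its groups did not overlap either, at a difference of -0.18 (-0.37 to 0.01, adjusted p = 0.250). Of all genes tested in heart between these ages, 13.3% showed no overlap, and 4.76% did so with the lower values at 12 weeks.

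*mt-Nd1* had 30109, 31907, 32650 and 31870 CPM in heart at 8 weeks, 34783, 31950, 31238 and 33265 CPM at 10 weeks and 28583, 25646, 30316 and 28116 CPM at 12 weeks. The values at 12 weeks lay below all those at 10 weeks, which no other member did and 5.63% of all genes did in either direction, and 1 of them lay above the lowest at 8 weeks. Between 12 and 10 weeks *mt-Nd1* differed by -0.25 (-0.43 to -0.06, unadjusted p = 0.0112, adjusted p = 0.284 in edgeR), and it was the 1 member with an unadjusted p under 0.05 there. None of the 7 was called in that comparison, beside 0.0396% of all genes. By DESeq2 and limma-voom, 4 and 2 of the 7 had an unadjusted p under 0.05 and none was called.

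*mt-Nd6* in heart stood at 6973, 7159, 7024 and 7146 CPM at 8 weeks, 6893, 6183, 5924 and 6093 CPM at 10 weeks and 5684, 7147, 6452 and 5741 CPM at 12 weeks. All libraries at 10 weeks lay below those at 8 weeks, as 8.89% of all genes were separate between these ages in either direction, and at 12 weeks 1 library lay among those at 8 weeks. Its difference was -0.17 between 10 and 8 weeks (-0.36 to 0.02) and -0.21 between 12 and 8 weeks (-0.40 to -0.02, adjusted p = 0.180 in edgeR). Between 10 and 8 weeks none of the 7 was called by edgeR, DESeq2 or limma-voom, beside 1.06% of all genes in edgeR, and 0, 1 and 1 of them had an unadjusted p under 0.05.

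*mt-Nd5* was the only member whose difference between 12 and 8 weeks in heart was above 0. It had 19753, 31284, 31136 and 28915 CPM at 8 weeks, 27564, 29887, 27501 and 25991 CPM at 10 weeks, and 26702, 32729, 27897 and 28829 CPM at 12 weeks. Replicate 1 at 8 weeks stood far below the other libraries of its group, and the difference between 12 and 8 weeks was 0.03 (95% interval -0.24 to 0.31). Without that library it was -0.10 ± 0.09 (SE, adjusted p = 0.524 in edgeR), so that the sign of this value rested on 1 library, and then all 7 differences were below 0 and none was called. The same library was the highest of its group for *mt-Co1* and *mt-Cytb*, and the mitochondrial ribosomal RNAs took 0.183% of its counted pairs, against 0.918% to 1.02% in the other 3. *mt-Cytb* and *mt-Nd4* differed between 12 and 8 weeks by -0.15 (-0.33 to 0.03) and -0.09 (-0.29 to 0.11).

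In kidney and liver no member was called between any ages. In kidney the differences between 12 and 8 weeks ran from -0.05 for *mt-Co1* to 0.12 for *mt-Nd6*, with 95% intervals that reached from -0.24 to 0.46, beside 0.0567% of all genes called. Between 10 and 8 weeks (0.929% of all genes called) they ran from -0.10 to 0.08, and between 12 and 10 weeks (0.482%) from -0.12 to 0.14. In liver the differences between 12 and 8 weeks ran from -0.01 for *mt-Nd1* to 0.12 for *mt-Co1*, with intervals from -0.25 to 0.33, beside 0.239% of all genes called. Between 10 and 8 weeks (0.0204% called) they ran from -0.14 to 0.12, and between 12 and 10 weeks (0.0545%) from -0.10 to 0.19. No member had separate groups in CPM between any of these ages, where 6.83%, 8.67% and 9.09% of all genes did in kidney (12 against 8, 10 against 8 and 12 against 10 weeks) and 7.42%, 9.29% and 8.32% in liver. None of the 7 reached an unadjusted p under 0.05 in edgeR. By DESeq2 and limma-voom none was called, and 2 and 1 of the 7 reached an unadjusted p under 0.05 between 12 and 10 weeks in liver and none in the other comparisons.

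**Figure D5:**
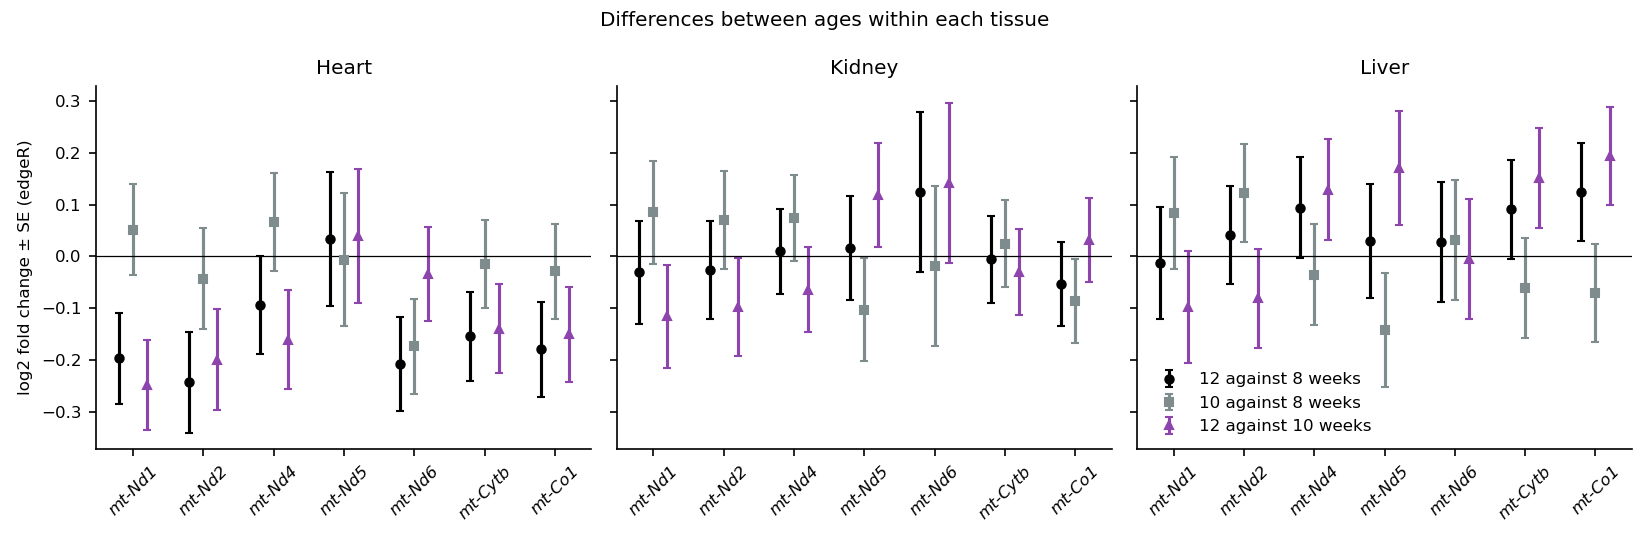
Log2 fold change of each of the 7 transcripts between ages in edgeR's fit within each tissue, with its SE, for 12 against 8 weeks (black circles), 10 against 8 weeks (grey squares) and 12 against 10 weeks (purple triangles). In heart, 6 of the 7 points for 12 against 8 weeks lie below 0 and *mt-Nd5* lies at 0.03. None of the points in any panel passed the adjusted p.

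Whether the change from 8 to 12 weeks differed between tissues was tested by interaction terms in the model of all 36 libraries. For heart against kidney the differences of change ran from -0.32 for *mt-Nd6* to 0.03 for *mt-Nd5*, and none of the 7 was called by edgeR, DESeq2 or limma-voom, beside 0.112% of all genes in edgeR. For heart against liver they ran from -0.30 for *mt-Co1* to 0.00 for *mt-Nd5*, and edgeR called none of the 7, beside 4.16% of all genes. The other tools called *mt-Co1* here, DESeq2 with -0.29 ± 0.09 (SE, adjusted p = 0.0256, beside 7.05% of all genes called) and limma-voom with -0.30 ± 0.08 (adjusted p = 0.0349, beside 3.31%), while edgeR gave it -0.30 ± 0.16 and an adjusted p of 0.318. For kidney against liver the range was -0.19 to 0.08, none of the 7 was called by the 3 tools, and edgeR called 0.304% of all genes. In edgeR no member had an unadjusted p under 0.05 in these tests. DESeq2 and limma-voom each gave 3 such members for heart against liver, 1 for kidney against liver and 0 for heart against kidney.

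Pairs that reached across the overlap of *mt-Nd5* and *mt-Nd6* were missing from the counts of both. The counts without regard to strand leave out a pair that touches genes on both strands, while each count by strand keeps it for 1 gene. The difference between the sum of the 2 strand counts and the count without strand therefore gives the pairs set aside for touching a gene on the other strand. Pairs that touch 2 genes on the same strand are left out of the strand counts as well and do not appear in it. These were 14.8% to 23.0% of the strand-summed pairs of *mt-Nd5* and 43.3% to 51.8% of those of *mt-Nd6*, over all 36 libraries. The number set aside for *mt-Nd6* was 1.00 to 1.05 times that for *mt-Nd5* in every library. For *mt-Cytb* the share was 2.82% to 4.41%, for *mt-Co1* 0.189% to 0.801%, and for the other members at most 0.216%. The neighbours that overlap *mt-Nd1*, *mt-Nd2* and *mt-Nd4* lie on the same strand, so pairs shared with them are not in this share. The highest share of *mt-Nd5*, 23.0%, was in heart replicate 1 at 8 weeks, the library with its low count.

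With the set-aside pairs returned, the ratio of *mt-Nd6* to *mt-Nd5* pairs went from a mean of 0.235 ± 0.040 to 0.370 ± 0.045 in heart, from 0.209 ± 0.018 to 0.344 ± 0.016 in kidney and from 0.208 ± 0.017 to 0.334 ± 0.018 in liver (SD, n = 12). A pair on the overlap was returned to both genes. Adding nearly the same number to both counts must raise the ratio of the smaller to the larger, so the rise is not a result. The mean share set aside for *mt-Nd6* came to 47.4% for heart, 49.2% for kidney and 47.7% for liver. About as many pairs fell on one strand as on the other in these libraries, so RNA of *mt-Nd6* cannot be told apart from RNA of the opposite strand.

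The nuclear genes that build the same complexes were described by counts from lists chosen with earlier results known. Of 36 nuclear subunits of complex I, 34 were called higher and 2 lower in heart than in kidney, with a median log2 difference of 1.67. For complex III 9 of 9 were higher (median 1.64), and for complex IV 12 of 14 were higher and 2 lower (median 1.94). These medians stand beside 1.96 for the 7 mitochondrial transcripts. Against liver, 35 of 36, 9 of 9 and 12 of 14 were higher in heart, with medians of 1.56, 1.57 and 1.82. Of all genes tested, 39% were called higher in heart than in kidney and 42% higher than in liver. On total counts the calls were close to these, with 34 of complex I, 9 of complex III and 11 of complex IV higher in heart than in kidney and 36, 9 and 12 higher than in liver. Of all genes, 26.3% and 48.2% were called higher in heart there. Between kidney and liver, 13 subunits of complex I were higher and 16 lower, with a median of -0.04, beside 46% and 37% of all genes. On total counts 33 were higher and none lower, with a median of 0.75, beside 72.3% and 17% of all genes. For complexes III and IV on total counts, 6 and 14 subunits were higher and 2 and 0 lower.

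The factors that transcribe, process and copy mitochondrial RNA and DNA and the nuclear regulators of mitochondrial biogenesis gave 58 tested genes. With TMM factors 37 of them were higher and 15 lower in heart than in kidney, 24 higher and 24 lower in heart than in liver, and 9 higher and 36 lower in kidney than in liver. Of all genes tested, 39%, 42% and 46% were called higher in these comparisons and 47.1%, 42.2% and 37% lower. On total counts 26.3%, 48.2% and 72.3% of all genes were higher and 61.7%, 35.5% and 17% lower, and the counts in each of the 4 lists moved the same way between the scalings as those of all genes. Of 10 transcription genes 7 were higher and 2 lower in heart than in kidney, with a median log2 difference of 0.31, and on total counts 2 were higher and 6 lower, with a median of -0.22. *Mterf2*, of the mitochondrial transcription termination factor family, was higher in heart by 2.62 ± 0.12 over kidney and 2.84 ± 0.13 over liver (edgeR adjusted p = 2.63e-20 and 1.29e-20). *Tfb2m*, which opens the promoter for the mitochondrial RNA polymerase, was higher by 0.94 ± 0.05 and 0.63 ± 0.05. Against liver 3 of the 10 were higher in heart and 4 lower, and on total counts 5 and 3. In kidney 8 were lower than in liver and none higher, and on total counts 9 were higher and none lower. With TMM factors the largest differences were those of *Tfb1m*, a ribosomal RNA methyltransferase (-0.74 ± 0.09), and *Tfam*, which packs mitochondrial DNA and bends its promoters (-0.49 ± 0.04). On total counts *Tfb1m* had 0.05 and was not called, and *Tfam* turned to 0.30 and was called higher in kidney, with median levels of 47.0 CPM in heart, 62.5 CPM in kidney and 50.9 CPM in liver.

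Of 23 genes of RNA processing and turnover 22 were tested. In heart 16 were higher and 4 lower than in kidney (median 0.52), and 11 were higher and 9 lower than in liver (median 0.09). On total counts these were 9 and 8 (median -0.01) and 13 and 8 (median 0.36). *Fastk*, a mitochondrial RNA-binding protein needed for *mt-Nd6* RNA, was higher in heart by 2.21 ± 0.07 over kidney and 2.32 ± 0.07 over liver. *Ptcd3*, a pentatricopeptide protein of the mitochondrial ribosome, was higher by 1.89 ± 0.05 and 1.41 ± 0.05. Between 12 and 8 weeks in heart it was called, higher at 12 weeks by 0.26 ± 0.07 (edgeR adjusted p = 0.0489), which made 1 of the 58 genes of the 4 lists (1.72%) beside 4.56% of all genes, and none of them was called between these ages in kidney or liver. The change from 8 to 12 weeks differed between heart and liver for 2 of the 58 (3.45%, beside 4.16% of all genes), namely *Lrpprc*, which stabilises mitochondrial messenger RNAs (difference of change 0.44 ± 0.12 on the log2 scale, edgeR adjusted p = 0.0251), and *Taco1*, a translational activator of *mt-Co1* (0.62 ± 0.16, adjusted p = 0.0236). Neither was called within heart (0.29 ± 0.08 and 0.22 ± 0.09) or within liver (-0.16 ± 0.10 and -0.40 ± 0.14). Between kidney and liver 2 were higher and 14 lower in kidney, which on total counts became 17 higher and 1 lower. *Hsd17b10*, a part of the mitochondrial ribonuclease P (-1.31 ± 0.06), stayed lower in kidney on total counts (-0.51), while *Pnpt1*, polynucleotide phosphorylase (-0.87 ± 0.04), came to -0.08 and was not called.

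Of 14 genes of mitochondrial DNA replication, 7 were higher and 6 lower in heart than in kidney and 4 higher and 7 lower than in liver. On total counts 2 were higher and 7 lower than in kidney and 7 higher and 6 lower than in liver. *Dna2*, a nuclease and helicase, was lower in heart by -2.86 ± 0.11 on the log2 scale against kidney and -3.79 ± 0.11 against liver, and *Top1mt*, the mitochondrial topoisomerase, by -2.08 ± 0.06 against kidney. *Rrm2b*, a ribonucleotide reductase subunit, was higher than in liver in heart (2.87 ± 0.07) and in kidney (2.39 ± 0.06). The differences given for these 3 genes kept their directions on total counts. In kidney 2 of the 14 were higher and 9 lower than in liver, and on total counts 11 were higher and none lower, where 72.3% of all genes were higher.

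Of 12 nuclear regulators of mitochondrial biogenesis, 7 were higher and 3 lower in heart than in kidney, and 6 higher and 4 lower than in liver. On total counts 4 were higher and 6 lower than in kidney and 8 higher and 3 lower than in liver. *Perm1*, a regulator named for striated muscle, stood at 315 to 378 CPM in heart, 7.47 to 12.4 CPM in kidney and 0 to 0.460 CPM in liver, where no library held more than 13 pairs. It was higher in heart than in kidney by 5.58 ± 0.10. *Ppargc1b*, a coactivator of nuclear receptors, was higher by 1.14 ± 0.16. The orphan nuclear receptors *Esrrg* and *Esrrb* were at 0.398 to 3.52 and 0.523 to 1.56 CPM in liver, and *Esrrg* was higher in heart than in liver by 4.83 ± 0.14 and *Esrrb* higher in kidney than in liver by 4.99 ± 0.13. The differences given for these named regulators, and for *Mterf2*, *Tfb2m*, *Fastk* and *Ptcd3* between tissues, kept their directions on total counts. Between kidney and liver 5 of the 12 were higher and 5 lower, and on total counts 8 and 2.

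The genes whose log2 CPM went most closely with that of the summed members over the 36 libraries were *Asb11* (Pearson r = 0.996), *Srl* (0.995), *Rpl3l* (0.995), *Pfkm* (0.995) and *Ktn1* (0.995), out of 9296 nuclear genes with a mean of at least 10 CPM. All 5 were highest in heart and lowest in liver, for example *Srl* with means of 1153, 6.15 and 0.516 CPM in heart, kidney and liver, and the correlation describes the order of the tissues. After the mean of each of the 9 groups was subtracted, the highest values were 0.654 for *BC048644*, 0.643 for *Deptor*, 0.638 for *Svip*, 0.622 for *Slc40a1* and 0.613 for *Ndrg2*. Among the 7 members themselves the 21 pairwise correlations were 0.956 to 0.998 over all libraries and 0.154 to 0.864, with a median of 0.452, after subtracting the group means. All of these points share their library and its depth.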

How the data were processed

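RNA of heart, kidney and liver was measured in 36 libraries, 4 for each of 9 groups of tissue and age, as the labels give them. To make the files, the authors examined the reads with FastQC 0.11.9, trimmed them with cutadapt 4.2 and aligned the pairs with STAR 2.7.11b to GRCm39 with Ensembl release 113. The deposited counts are whole numbers of pairs per gene, not normalized, without regard to strand and by strand. The count without regard to strand was used. It leaves out pairs that match several places equally well and pairs on more than 1 gene, which lowers genes with nuclear copies or overlaps. Depth was 21031599 to 33637390 counted pairs per library, so counting error is small for the 7 genes beside the spread between libraries.

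Genes were kept when in at least 1 group the mean count reached 10 and 2 or more libraries were above 0. Tests used edgeR 4.0.16 (TMM, glmQLFit, glmQLFTest) in R 4.3.3 with Benjamini-Hochberg adjustment over all genes kept, in 1 model of 9 group means for tissues and interactions and in 1 model per tissue for ages. The common coefficient of variation was 0.150 over all libraries, 0.118 in heart, 0.113 in kidney and 0.206 in liver. The fits were also run on simulated data in which few genes were changed, which does not test the scaling between tissues. Nuclear copies were located with blastn 2.17.0 at an e-value of 1e-10 in GRCm39, and only the longest were compared with the genes. Gene positions are those of GENCODE vM39, to which 78168 of the 78239 identifiers matched. Log2 CPM for correlations used an offset of 0.5. Other steps used samtools 1.23.1, matplotlib 3.10.9, pandas 2.3.3 and numpy 2.4.6 under python 3.11.15.

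The members and lists were chosen with earlier results of these data known. All 7 members were described in every comparison, by their values or by the range over them. From each factor list the text names up to 2 called genes with the largest absolute log2 fold change in each comparison of tissues and all called genes up to 3 between 12 and 8 weeks, and beside them the 5 nuclear genes with the highest correlation. Alternatives were RLE factors, total counts, nuclear genes alone setting the scale, DESeq2 1.42.0, limma-voom (limma 3.58.1), no count filter, filterByExpr, the counts of the first strand, a replicate block, and each library left out in turn. The last of these was added for the shares after the data had been seen. The lists of nuclear genes were also counted on total counts. The check for outlying libraries covered the 7 levels, their summed share and the share of mitochondrial ribosomal RNA.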

Additional observations from a re-analysis of the deposited data

Results flagged for a closer look

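Over the 81 sets of 4 libraries checked, 3 libraries stood apart from the others of their group, where chance gives about 1 in 20. *mt-Nd4* in liver at 12 weeks was 5155 CPM in replicate 1 and 5753 to 5765 CPM in the other 3 libraries. The mitochondrial ribosomal RNAs took 0.183% of the counted pairs in heart replicate 1 at 8 weeks, against 0.918% to 1.02% in the others, and *mt-Nd5* of that library was 19753 CPM against 28915 to 31284 CPM. They took 0.739% in heart replicate 3 at 10 weeks, against 0.983% to 1.03% in the others. The change from 8 to 12 weeks differed between heart and liver for *Taco1*, by 0.62 on the log2 scale, and for *Lrpprc*, by 0.44 (edgeR interaction test, adjusted p = 0.0236 and 0.0251).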

How the results depend on the processing

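The number of members called stayed at 7 for heart against kidney and for heart against liver under all alternatives and at 0 in all 9 comparisons of ages. For kidney against liver it was 5 with TMM factors, and on total counts the differences of *mt-Nd2* (0.45), *mt-Nd4* (0.79), *mt-Cytb* (0.78) and *mt-Co1* (0.37) reversed and all 7 were called higher in kidney. In the interaction of heart against liver DESeq2 and limma-voom each called 1 member, *mt-Co1*, and edgeR 0. With nuclear pairs as the denominator the share of the 7 genes came to 39.8% for heart, 11.02% for kidney and 6.89% for liver. With all read pairs it was 20.2%, 7.66% and 4.74%, and on the first strand 24.96%, 8.77% and 5.49%. With each library left out in turn the calls ranged from 7 to 7 for heart against kidney and heart against liver, 5 to 5 for kidney against liver and 0 to 0 in all others, and the shares from 27.9% to 28.5%, 9.85% to 9.99% and 6.37% to 6.48%. A block on the library number in the model of all libraries gave 7, 7 and 5 calls between tissues and 0 in the interactions. In the models per tissue the block was the replicate number, which joins different library numbers across ages, and it gave 0 calls. The labels do not say that a number stands for 1 mouse, so the main tests did not take the numbers as pairs. Libraries with the same number in 2 tissues had deviations correlated over 0.1 in 8 of 12 pairs for heart and kidney. For heart and liver this held in 4 of 12 and for kidney and liver in 10 of 12. Of the 12 libraries of the first tissue, 9, 6 and 12 correlated best with their own number among the 4 of that age in the other tissue. That is a hint of pairing from the data and not the design. If the numbers are mice, the main tests treated paired libraries as independent. Across ages within a tissue, 4 libraries in heart, 3 in kidney and 4 in liver correlated best with their own replicate number. Depth does not limit these genes. The counts cannot recover pairs shared with nuclear copies, and the libraries cannot separate the strands of *mt-Nd6*.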
